A study of Mus musculus with 8 samples.

Results

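The 29 genes described here carry out or regulate the synthesis of cholesterol and of fatty acids. They were taken by name from a table of 23355 genes, and each name matched 1 row. They fall into 15 genes of the sterol steps (Hmgcs1, Mvk, Pmvk, Mvd, Idi1, Fdps, Fdft1, Sqle, Lss, Cyp51, Msmo1, Nsdhl, Hsd17b7, Dhcr7 and Sc5d), 10 genes of the fatty acid steps (Acaca, Acly, Fasn, Scd1, Scd2, Elovl5, Elovl6, Fads1, Fads2 and Me1) and 4 genes of regulation and sterol transport (Srebf1, Srebf2, Insig1 and Stard4). RNA had been measured in epithelial cells sorted from the buccal (cheek) mucosa of untreated wild type C57BL/6 mice kept free of specific pathogens, 4 animals of 1 week and 4 of 8 weeks of age, with 1 library for each. The libraries are called 1 week 1 to 4 and 8 weeks 1 to 4. The sort gate and the sex of the animals were not given in the sources used here. The study asks how the transcripts of this epithelium differ between the ages.

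Cholesterol is built from acetyl-CoA through mevalonate, isoprenoid diphosphates, squalene and lanosterol, and fatty acids from acetyl-CoA through malonyl-CoA, followed by elongation and desaturation. Both routes are switched on by the membrane-bound transcription factors SREBP-2 and SREBP-1, encoded by Srebf2 and Srebf1, with SREBP-2 known mainly for the sterol genes and SREBP-1 for the fatty acid genes. When sterols are plentiful, INSIG proteins hold the precursors of these factors in the endoplasmic reticulum, so the sterol genes are known to move as a set. In stratified epithelium cholesterol and fatty acids feed membranes and the lipids between the cells of the upper layers.

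The libraries held 11747783 to 16807773 counts, and the members between 384 (Fdps) and 26196 (Hmgcs1) counts over the 8 libraries. All 29 passed the filter on low counts. Keratinocyte genes fixed as markers were abundant (10 of 10 tested, summed level 38837 to 44425 CPM at 1 week and 33699 to 41669 CPM at 8 weeks, where CPM is the count scaled to a common library size after TMM normalisation). Markers of sebocytes, lipid-producing gland cells, summed to 11.5 to 29.7 CPM at 1 week and 11.4 to 25.01 CPM at 8 weeks, with 7 of 9 markers in the table. Most of this was the keratin Krt79, with means of 14.9 and 12.7 CPM. Markers of adipocytes summed to 4.74 to 6.62 CPM at 1 week and 6.53 to 7.85 CPM at 8 weeks, with 3 of 9 markers in the table. Nearly all of this was Lipe, with means of 5.43 and 6.69 CPM. Erythroid genes summed to 3.38 to 13.7 CPM at 1 week and 22.9 to 71.4 CPM at 8 weeks, with 5 of 5 genes tested. Of these edgeR called 3 higher at an adjusted p under 0.05, against 3.33% of all genes tested. Of 7 fibroblast markers 6 were in the table, summing to 923 to 1161 CPM at 1 week and 400 to 776 CPM at 8 weeks, and nearly all of this was Dcn, with means of 990 and 541 CPM. The other 5 (Col1a1, Col1a2, Col3a1, Pdgfra and Dpt) had means under 0.5 CPM at both ages and did not pass the filter on low counts. Among the keratinocyte markers 0 were called by edgeR, with 3 higher and 2 lower at an unadjusted p under 0.05. DESeq2 called 4 higher and 2 lower and limma-voom 1 lower, and the groups of 5 did not overlap. Over all genes tested 27.8% had an unadjusted p under 0.05 by edgeR, and the groups did not overlap in 14.8%. DESeq2 called 14.5% of all genes and limma-voom 11.3%. Krt14, a keratin of the basal layer, had means of 8417 CPM at 1 week and 6006 CPM at 8 weeks, while Krt4, a keratin of the upper layers, had 3850 and 4784 CPM. Cdh1, Dsp and Dsg3, genes of cell contacts, were also higher in every library of 8 weeks. Krt5 and Trp63, also of the basal layer, had log2 fold changes (8 weeks over 1 week) of -0.39 and 0.07. Krt13, another keratin of the upper layers, had 0.09, and the groups overlapped for each of Krt5, Trp63 and Krt13. The part of these markers in the results was not tested. In bulk RNA fewer cells of a type and less RNA per cell cannot be told apart. The slope of expression on transcript length was -0.17 to -0.05 log2 per doubling among libraries of 1 week and -0.02 to 0.20 among those of 8 weeks. Fits with an offset for transcript length and GC content are therefore also given for the 29 members, in the text or in the plot of fold changes. They are given as well for the called genes of the other lipid lists. With this offset the log2 fold change of Dsp was -0.03 against 0.27 as fitted. Cdh1 was at 0.19 against 0.26 and Dsg3 at 0.13 against 0.27. Krt14 was at -0.32 against -0.49, and Krt4 at 0.45 against 0.31.

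Between the ages 1 of the 29 members passed the test. Idi1, the isomerase that interconverts the isoprenoid building blocks, fell 1.45-fold at 8 weeks, and 0 members rose. Over all 14533 genes tested edgeR called 6.55% at an adjusted p under 0.05, 3.33% higher and 3.22% lower, so the share of the members called, 1 of 29, was not above that of all genes. With libraries scaled by library size alone, 69.8% of all called genes were higher against 50.8% with TMM scaling. The sterol steps as a list lay below 0: 12 of 15 had a negative log2 fold change (8 weeks over 1 week), with a median of -0.34 against -0.00 over all genes tested, of which 49.8% were above 0. The fatty acid steps had 7 negative and 3 positive values and a median of -0.04, which turned to 0.06 with library size alone. The 4 regulators had 2 of each sign and a median of -0.04, and 0.06 with library size alone. The difference between the sterol and the fatty acid steps was not tested.

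At an unadjusted p under 0.05 there were 8 of the 15 sterol members lower and 0 higher, where all genes tested had 27.8% past this level, 14.3% lower and 13.5% higher. The fatty acid steps had 3 of 10 lower and 1 higher on the same basis, and the regulators 0 of 4. The 12 sterol members below 0 were Mvk, Pmvk, Mvd, Idi1, Fdps, Fdft1, Sqle, Cyp51, Msmo1, Nsdhl, Hsd17b7 and Sc5d, and each was below 0 in every alternative that tested it. These alternatives share most of their libraries, and the stricter filter left 13 of the 15 sterol members. The median of the sterol list ran from -0.43 to -0.22 over the 19 alternatives. With the offset for transcript length and GC content it was -0.22, against 0.02 over all genes.

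**Figure D1:**
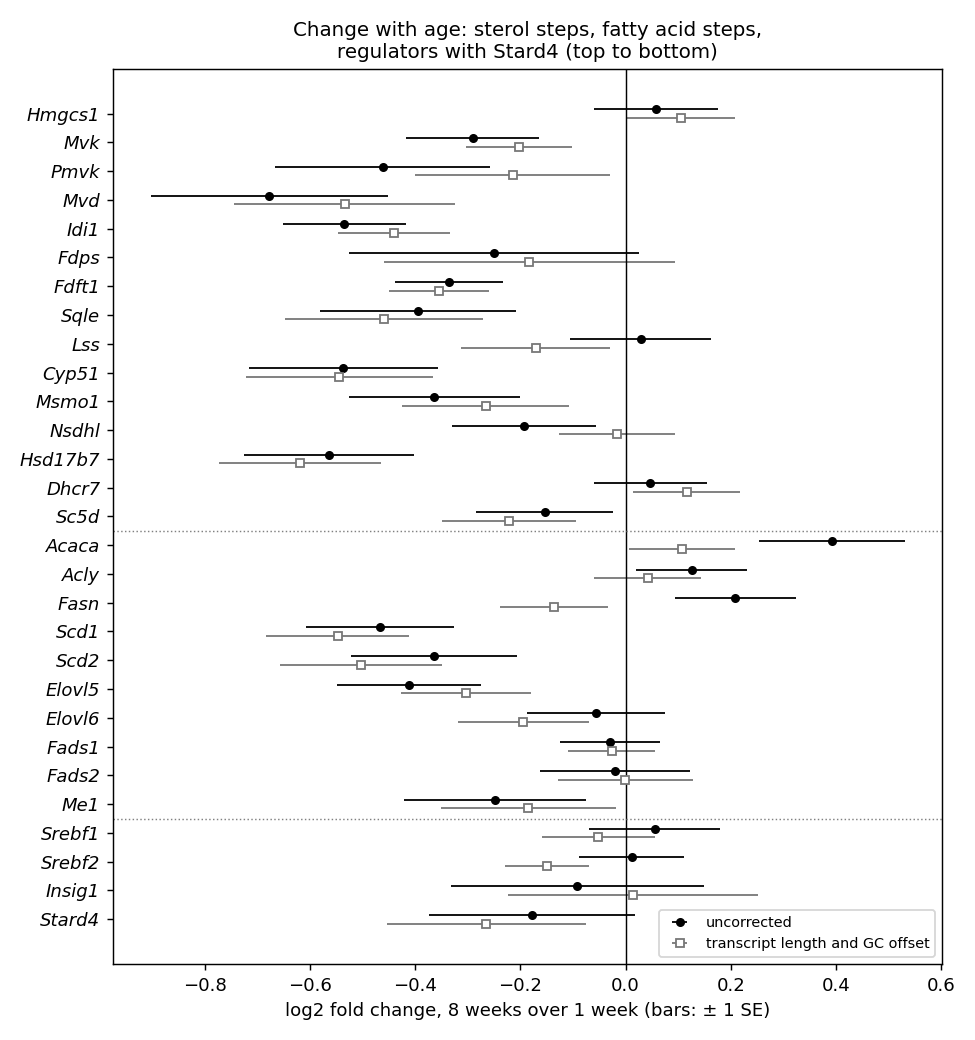
Log2 fold change (8 weeks over 1 week, x axis) of the 29 members with bars of ± 1 SE, as fitted (filled circles) and with an offset for transcript length and GC content (open squares), for sterol steps, fatty acid steps, and regulators with Stard4 from top to bottom. Of the sterol steps, 12 of 15 lie left of 0 as fitted, while Acaca and Fasn move left with the offset, Fasn from 0.21 to -0.14.

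The upper part of the sterol route makes mevalonate and turns it into isoprenoid diphosphates. Hmgcs1 (ENSMUSG00000093930, chromosome 13, 119690379 to 119708260, plus strand, GRCm38), which encodes the cytosolic HMG-CoA synthase at the entry of the route, had the highest level per length of all members, 67.9 CPM per kb of its longest transcript at 1 week and 70.7 at 8 weeks. Its levels were 264, 232, 187 and 258 CPM in the 4 libraries of 1 week and 226, 263, 231 and 261 CPM in those of 8 weeks. The groups overlapped, and the lowest of the 8 was 1 week 3. The means were 235 ± 34.7 and 245 ± 19.2 CPM (SD, n = 4 each), with a log2 fold change of 0.06 (SE 0.12, edgeR adjusted p = 0.78).

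Idi1 (ENSMUSG00000058258, chromosome 13, 8885501 to 8892451, plus strand) stood at 71.3, 65.6, 50.8 and 72.3 CPM at 1 week and at 47.2, 43.8, 42.3 and 46.1 CPM at 8 weeks. Every library of 8 weeks was below every library of 1 week, and the gap was set by 1 week 3. Over all genes tested the groups did not overlap in 14.8%, 7.69% higher and 7.11% lower at 8 weeks, and among the members this held for Idi1 and Mvd. The mean of Idi1 went from 65.0 ± 9.89 to 44.8 ± 2.23 CPM (SD, n = 4 each), a log2 fold change of -0.54 (SE 0.12, edgeR adjusted p = 0.0258). The adjusted p was 0.0485 with the length and GC offset, and 0.00329 in the authors' deposited table. The call was lost without 1 week 1, 8 weeks 1, 8 weeks 3 or 8 weeks 4 (edgeR adjusted p = 0.0839, 0.0653, 0.0811 and 0.0513). An unspliced transcript model on the opposite strand, Gm48574, covers 9.22% of the exon bases of Idi1 and held between 0 and 8 counts per library.

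Mvd, the decarboxylase that makes isopentenyl diphosphate, was at 5.46, 6.63, 6.21 and 5.52 CPM at 1 week and at 3.49, 3.89, 2.97 and 4.56 CPM at 8 weeks. The groups did not overlap here either, at a low level of 515 counts over the 8 libraries. Its log2 fold change of -0.68 (SE 0.23) was the widest of the members and did not pass (edgeR adjusted p = 0.0794). Mvk and Pmvk, the kinases before it, had log2 fold changes of -0.29 and -0.46 (edgeR adjusted p = 0.152 and 0.162). Pmvk varied widely at 1 week, from 12.2 CPM in 1 week 2 to 21.8 CPM in 1 week 4. Its value was -0.21 with the length and GC offset, -0.28 without 1 week 4 and -0.077 without 1 week 1 and 1 week 4, the pair richest in small structural RNA. Under that name were counted the genes of type misc_RNA together with Rmrp, Rpph1 and Ccnb1ip1. Fdps, the synthase of farnesyl diphosphate, had the lowest level per length of all members, 1.302 and 1.09 CPM per kb, with a log2 fold change of -0.25 (edgeR adjusted p = 0.584). In the GENCODE annotation the protein-coding gene Gm43738 lies on the same strand and shares 26.7% of the exon bases of Fdps. Reads that fall in both can be lost in counting, and the part of this in the level of Fdps was not tested. Hmgcs1, Mvd, Lss and Acaca also lie opposite annotated genes (Gm48342, Gm20388, 4930483K19Rik and Gm11437). Fdft1, Me1, Cyp51, Srebf1 and Elovl6 overlap opposite genes by 34 to 774 bases (Ctsb, A330041J22Rik, Akap9, Rai1 and Gm35986). Reads in shared exons cannot be told apart if counting did not use strand. Mvd shares 0 exon bases with Gm20388, and shared exons were otherwise measured only for Idi1 and Fdps.

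The lower part of the route joins isoprenoids to squalene, closes the ring to lanosterol and removes methyl groups, and 3 of its genes had an adjusted p between 0.05 and 0.1. Fdft1, squalene synthase, stood at 66.3, 62.4, 52.1 and 65.1 CPM at 1 week and at 48.3, 52.4, 46.3 and 47.8 CPM at 8 weeks. The groups met only between 1 week 3 and 8 weeks 2. The log2 fold change was -0.34 (SE 0.10, edgeR adjusted p = 0.0643). Cyp51, the lanosterol demethylase, was at 49.2, 59.5, 32.4 and 39.2 CPM and at 31.4, 36.7, 23.3 and 32.9 CPM, a log2 fold change of -0.54 (SE 0.18, edgeR adjusted p = 0.0799). Here 1 week 3 lay inside the range of 8 weeks and 8 weeks 3 was the lowest of all libraries.

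Hsd17b7 (ENSMUSG00000026675, chromosome 1, 169949535 to 169969241, minus strand), which encodes the keto reductase of sterol demethylation, was at 17.9, 18.4, 12.3 and 15.7 CPM at 1 week and at 12.4, 10.5, 9.63 and 10.8 CPM at 8 weeks. The groups overlapped by a narrow margin, 1 week 3 against 8 weeks 1. Its log2 fold change of -0.56 (SE 0.16) had an edgeR adjusted p of 0.053, while the authors' deposited table gave 0.0333. The authors' deposited table thus had Idi1 and Hsd17b7, 2 of the 29 members, under 0.05, and 6.61% of all its genes with an adjusted p. Msmo1 and Nsdhl, which act beside Hsd17b7 in the same demethylation, had log2 fold changes of -0.36 and -0.19 (edgeR adjusted p = 0.165 and 0.379). Nsdhl was at -0.016 with the length and GC offset, and at -0.094 without 8 weeks 1.

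Sqle, squalene epoxidase and a slow step of the route, was at 29.4 and 31.8 CPM in 1 week 1 and 1 week 2, and at 16.1 to 20.03 CPM in every other library (log2 fold change -0.39, SE 0.19, edgeR adjusted p = 0.188). Lss, the cyclase that forms lanosterol, and Dhcr7, the reductase that completes cholesterol, differed between the ages by less than their SE, with log2 fold changes of 0.03 (SE 0.13) and 0.05 (SE 0.11). Lss had a value of -0.17 with the length and GC offset. Sc5d, the desaturase before Dhcr7, had a log2 fold change of -0.15 (SE 0.13, edgeR adjusted p = 0.465).

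**Figure D2:**
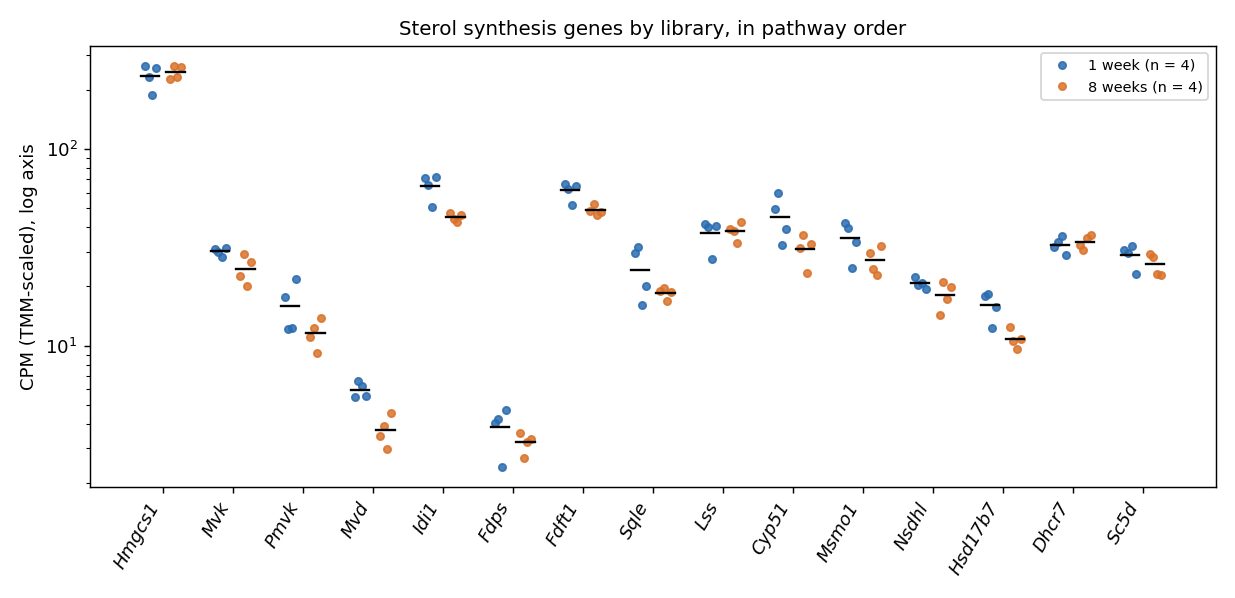
Level of the 15 sterol synthesis genes in each library (points, CPM on a log axis; 1 week in blue, 8 weeks in orange; black bars are means of 4 libraries), in the order of the pathway from left to right. Idi1 and Mvd are the genes whose groups do not overlap, and Hmgcs1, with 235 and 245 CPM, is the most abundant.

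The number of sterol calls differed between tests. The Wald test of DESeq2 called 5 of the 15 lower (Mvd, Idi1, Fdft1, Cyp51 and Hsd17b7) and limma-voom with sample weights called the same 5, where these tests called 14.5% and 11.3% of all genes. Leaving out 1 week 3 raised the edgeR count to 4 (Idi1, Fdft1, Cyp51 and Hsd17b7), with 4.8% of all genes called. Leaving out 8 weeks 2 gave 2 (Idi1 and Fdft1), with 12.6%. With the length and GC offset Idi1 was the 1 sterol gene called, with 2.81% of all genes.

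The starts of these genes are shown because SREBP is known to act through short elements near them, together with the factor NF-Y, which binds CCAAT. For 22 of the 29 members RefSeq (GRCm38.p6) gave at least 1 start. Fdps, Fdft1, Sqle, Scd1, Scd2, Fads1 and Stard4 had no start and were not searched. In the 250 bases before a start both strands were searched for the sterol regulatory element TCACNCCAC and for the CCAAT box. The E-box (CACGTG), which SREBP-1 and other factors are known to bind, and the GC box of the factor Sp1 (GGGCGG) were searched in the same way. A CCAAT box stood before all 12 of the sterol genes with a start, before 3 of 7 fatty acid genes and before 3 of 3 regulators, against 37.5% of all 27025 genes in the RefSeq table. The GC box stood before 11 of 12, 3 of 7 and 3 of 3, against 35.4%. A gene was counted when any of its windows matched, with 28 windows for the 22 members. The background was not limited to genes expressed here, so these gaps are not particular to sterol genes. The E-box was found before 5 of the 22 (Dhcr7, Elovl5, Hsd17b7, Insig1 and Sc5d), against 6.86%. The letters TCACNCCAC stood before Hmgcs1 alone, against 1.22%. Other forms of the sterol regulatory element were not searched, so its absence before the other members is not shown. A match of letters is a description of these windows and not a binding site. In the windows below, written 5′ to 3′ on the strand of the gene, capitals mark matches to the sterol regulatory element, the E-box and the CCAAT box (read as ATTGG on the other strand).
Hmgcs1, chr13:119690101-119690350, plus strand: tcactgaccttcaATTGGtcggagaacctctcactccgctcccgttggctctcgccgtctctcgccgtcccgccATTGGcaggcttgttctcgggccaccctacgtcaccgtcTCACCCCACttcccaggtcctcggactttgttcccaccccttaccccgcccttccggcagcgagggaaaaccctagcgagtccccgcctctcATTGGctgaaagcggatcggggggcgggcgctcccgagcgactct
Idi1, chr13:8885356-8885605, plus strand: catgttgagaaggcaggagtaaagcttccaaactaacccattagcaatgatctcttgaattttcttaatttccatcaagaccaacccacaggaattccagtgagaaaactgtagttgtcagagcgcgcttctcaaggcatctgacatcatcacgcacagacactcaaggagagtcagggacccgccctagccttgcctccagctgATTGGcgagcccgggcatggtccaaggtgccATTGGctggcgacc
Hsd17b7, chr1:169969206-169969455, minus strand: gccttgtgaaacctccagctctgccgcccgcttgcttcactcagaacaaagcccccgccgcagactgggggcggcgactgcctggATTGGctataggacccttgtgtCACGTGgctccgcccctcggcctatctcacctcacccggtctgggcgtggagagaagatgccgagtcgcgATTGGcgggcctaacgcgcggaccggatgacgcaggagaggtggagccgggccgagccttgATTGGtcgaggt
Insig1, chr5:28071162-28071411, plus strand: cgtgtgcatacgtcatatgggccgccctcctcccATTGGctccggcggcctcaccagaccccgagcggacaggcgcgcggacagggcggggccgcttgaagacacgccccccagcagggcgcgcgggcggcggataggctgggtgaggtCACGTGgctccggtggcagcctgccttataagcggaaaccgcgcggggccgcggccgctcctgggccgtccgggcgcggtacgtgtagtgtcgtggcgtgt
Fasn, chr11:120824548-120824797, minus strand: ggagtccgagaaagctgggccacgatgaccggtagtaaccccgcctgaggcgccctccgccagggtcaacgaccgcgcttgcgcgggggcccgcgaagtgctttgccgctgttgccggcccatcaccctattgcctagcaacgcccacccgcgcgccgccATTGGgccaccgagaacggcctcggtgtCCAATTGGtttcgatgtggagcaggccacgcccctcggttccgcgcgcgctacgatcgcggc
The window of Hmgcs1, whose level was similar at both ages, holds the sterol regulatory element 137 bases before the start and 3 CCAAT boxes. That of Idi1, the member called, holds 2 CCAAT boxes, 45 and 14 bases before the start. Hsd17b7 holds an E-box and 3 CCAAT boxes, Insig1 an E-box and 1 CCAAT box, and Fasn a cluster of CCAAT boxes 90 to 59 bases before its start. These distances are from the RefSeq start. For Idi1, Hsd17b7 and Insig1 that start lies inside the deposited gene span, so part of the window lies within the gene.

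The fatty acid route begins with Acly, which makes cytosolic acetyl-CoA from citrate, Acaca, the carboxylase that makes malonyl-CoA, and Fasn, the synthase of palmitate. Acaca had the largest positive value of the members. It was at 70.9, 81.6, 67.9 and 95.0 CPM at 1 week and at 129, 89.9, 106 and 88.9 CPM at 8 weeks. The groups overlapped through 1 week 4, and 8 weeks 1 was the highest. The log2 fold change was 0.39 (SE 0.14, edgeR adjusted p = 0.0917), and 0.11 (edgeR adjusted p = 0.558) with the length and GC offset, its longest transcript being 9513 bases. Fasn, with a transcript of 10050 bases, was at 146, 168, 121 and 139 CPM at 1 week and at 192, 158, 156 and 157 CPM at 8 weeks. The fitted change, 0.21 on the log2 scale (SE 0.12, edgeR adjusted p = 0.255), turned to -0.14 with that offset. Acly stood at 99.1 ± 13.3 and 108 ± 2.63 CPM (SD, n = 4 each; log2 fold change 0.13, SE 0.11), and Me1, the malic enzyme that supplies NADPH, had a log2 fold change of -0.25 (SE 0.17).

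The stearoyl-CoA desaturases Scd1 and Scd2, which make monounsaturated fatty acids, had negative values. Scd1 was at 29.2, 34.6, 22.7 and 30.1 CPM at 1 week and at 21.6, 24.5, 20.2 and 18.04 CPM at 8 weeks. The groups overlapped between 1 week 3 and 8 weeks 2. The log2 fold change was -0.47 (SE 0.14, edgeR adjusted p = 0.0624). Scd2 stood at 131 ± 28.2 and 102 ± 16.5 CPM (SD, n = 4 each; log2 fold change -0.36, SE 0.16, edgeR adjusted p = 0.153). Without 1 week 3 both passed (edgeR adjusted p = 0.0342 and 0.0481), and Scd1 also passed without 8 weeks 2 (0.0358), by DESeq2 (0.0318) and by limma-voom (0.0323). With the length and GC offset Scd1 was at -0.55 and Scd2 at -0.50 (edgeR adjusted p of 0.0514 and 0.0927). Per length Scd2 was the more abundant, at 24.1 against 6.03 CPM per kb at 1 week. The 2 genes are close relatives, so reads can be shared between them.

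Elovl5, which elongates polyunsaturated fatty acids, was at 28.4, 32.2, 33.1 and 30.9 CPM at 1 week and at 20.7, 25.1, 18.8 and 29.1 CPM at 8 weeks. Of the 8 weeks libraries only 8 weeks 4 reached the range of 1 week. The log2 fold change of -0.41 (SE 0.14) had an edgeR adjusted p of 0.0787, which was 0.0493 by DESeq2 and 0.0451 by limma-voom. Elovl6, which elongates palmitate, and the polyunsaturated fatty acid desaturases Fads1 and Fads2 had log2 fold changes of -0.06, -0.03 and -0.02 (SE 0.13, 0.10 and 0.14), each positive with library size alone. With the length and GC offset Elovl6 was at -0.19.

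**Figure D3:**
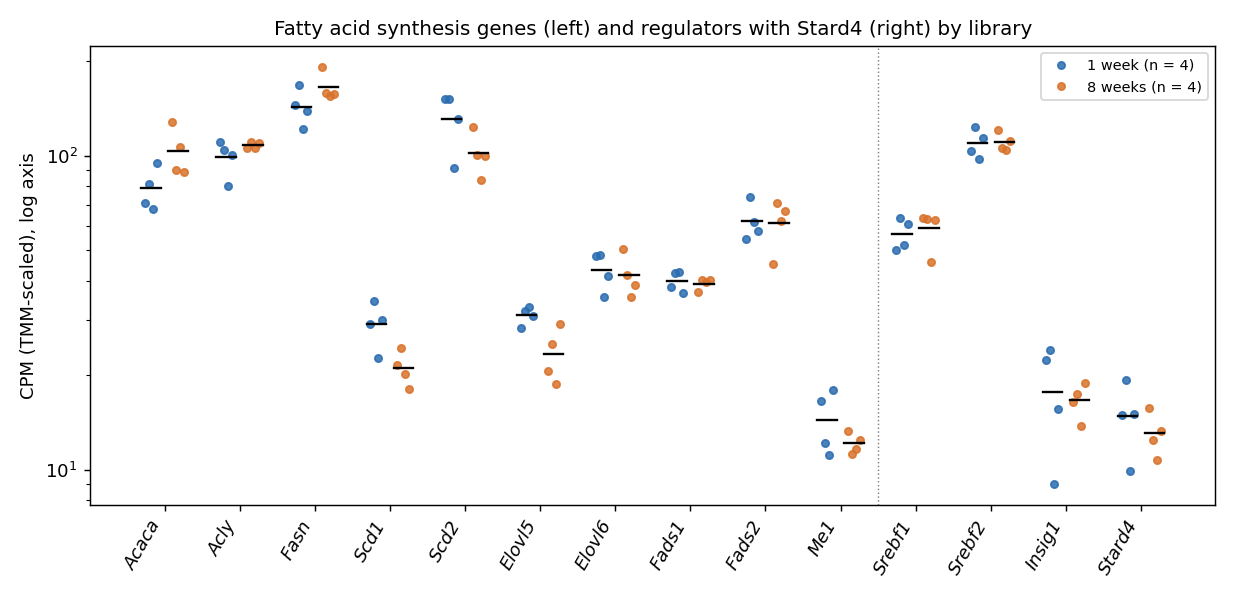
Level of the 10 fatty acid synthesis genes and, right of the dotted line, of Srebf1, Srebf2, Insig1 and Stard4 in each library (points, CPM on a log axis; 1 week in blue, 8 weeks in orange; black bars are means of 4 libraries). The ages overlap for every gene shown, and 1 library of 8 weeks stands apart for Fasn (192 CPM, high) and for Srebf1 (46.1 CPM, low).

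None of the 4 regulators and carriers passed between the ages by edgeR, DESeq2 or limma-voom, and 0 had an unadjusted p under 0.05. Srebf2 was at 104, 124, 97.5 and 114 CPM at 1 week and at 121, 106, 104 and 111 CPM at 8 weeks (a change of 0.01 on the log2 scale, SE 0.10, edgeR adjusted p = 0.952). Srebf1 was at 50.2, 63.3, 52.2 and 60.6 CPM and at 63.5, 63.1, 46.1 and 62.4 CPM (0.06, SE 0.12, edgeR adjusted p = 0.804). The groups overlapped for either gene, and gene counts do not separate the isoforms of Srebf1. With the length and GC offset both values were below 0, at -0.15 and -0.05.

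Insig1, which holds the SREBP precursors back and is itself a target of SREBP, was at 22.4, 24.0, 9.04 and 15.6 CPM at 1 week and at 16.5, 17.4, 13.8 and 18.9 CPM at 8 weeks. Its 1 week libraries spread more widely than those of any other member in relation to their mean, and the lowest was 1 week 3. The log2 fold change was -0.09 (SE 0.24, edgeR adjusted p = 0.832). Stard4, a carrier of sterols between membranes, ranged from 9.93 CPM in 1 week 3 to 19.4 CPM in 1 week 2 at 1 week and from 10.7 to 15.8 CPM at 8 weeks (a change of -0.18 on the log2 scale, SE 0.20, edgeR adjusted p = 0.584).

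Much of the spread of these genes was shared between them within an age, a pattern noticed after the values were seen. Among the 4 libraries of 1 week, 1 week 3 was the lowest in 20 of the 29 members (69%), against 26.9% of all genes tested. Among those of 8 weeks, 8 weeks 3 was the lowest in 19 of 29 (65.5%), against 24.1% of all genes, and the highest in 0. The sterol steps had 1 week 3 lowest in 10 of 15 and 8 weeks 3 in 10 of 15, the fatty acid steps in 7 and 5 of 10, and the regulators in 3 and 4 of 4. The median deviation of the sterol steps from each gene's mean over all libraries was 0.22, 0.19, -0.09 and 0.14 (log2) at 1 week and -0.14, -0.09, -0.30 and -0.04 at 8 weeks. Thus 1 week 3 lay within the range of 8 weeks for this list, and the other 1 week libraries above it. The members share libraries and are not independent, and the libraries carry no label of batch, sex or litter to which this could be set. Among the technical measures, 1 week 3 had the smallest share of counts on small structural RNA of the 1 week libraries (1.01%, against 2.82 to 9.14%), and 8 weeks 3 the largest of its age (2.01%, against 1.12 to 1.62%). The part of these in the pattern was not tested.

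**Figure D4:**
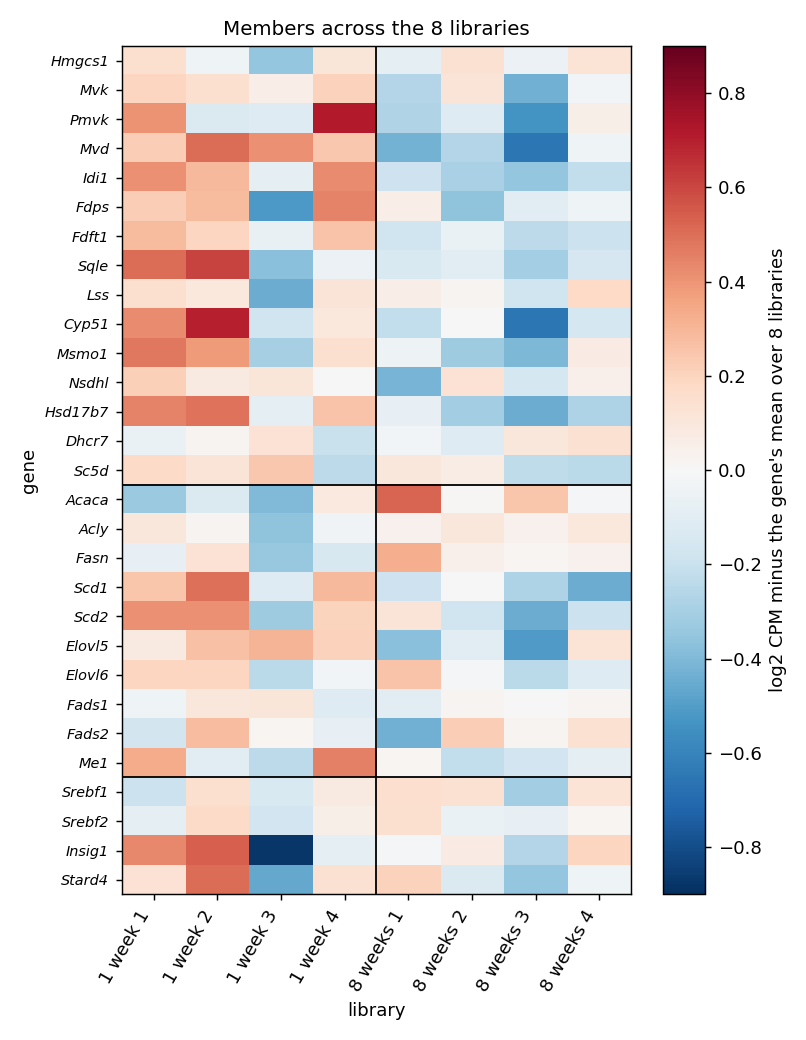
Deviation of each member (rows, in the order sterol steps, fatty acid steps, regulators with Stard4) in each of the 8 libraries (columns) from its own mean, as log2 CPM on a colour scale from blue (low) to red (high). The column of 1 week 3 is bluer than the other 1 week columns, and the sterol rows are mostly red at 1 week and blue at 8 weeks.

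The remaining genes of the pathways were taken from 5 lists of 63 genes, of which 57 were tested. At 8 weeks 3 of them rose and 2 fell, 8.77% against 6.55% of all genes. The split was 4 higher and 0 lower with library size alone, and 3 higher and 0 lower with no filter. Of 8 other sterol synthesis genes 0 were called by edgeR, DESeq2 or limma-voom, with 1 lower at an unadjusted p under 0.05 and values from -0.40 to 0.46. The smallest p was that of Ebp, a sterol isomerase, at a log2 fold change of -0.34 (SE 0.13, edgeR adjusted p = 0.113). Ebp was at -0.14 with the length and GC offset. Of 9 tested genes of sterol sensing 0 were called by edgeR, DESeq2 or limma-voom, with 2 higher at an unadjusted p under 0.05. The smallest p was that of Mbtps1, a protease that cuts SREBP, at 0.25 (SE 0.10, edgeR adjusted p = 0.122). With the offset Mbtps1 was at 0.05.

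Of 12 genes of sterol uptake, efflux and transport 1 rose and 1 fell. Npc1, a membrane protein that exports cholesterol from lysosomes, was at 32.8, 41.3, 49.3 and 50.6 CPM at 1 week and at 64.4, 61.6, 64.6 and 67.0 CPM at 8 weeks. All libraries of 8 weeks were above all of 1 week (log2 fold change 0.57, SE 0.13, edgeR adjusted p = 0.0283). Npc2, its soluble partner, went from 51.9 ± 3.54 to 39.6 ± 4.42 CPM (SD, n = 4 each; log2 fold change -0.39, SE 0.11, edgeR adjusted p = 0.0453). Npc2 was not called with library size alone (adjusted p of 0.11 by edgeR) or with no filter (0.0752), where Npc1 was, and neither was called with the length and GC offset (0.0606 and 0.0568).

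Of 17 tested genes of other fatty acid synthesis 1 rose and 1 fell. Acacb, the mitochondrial relative of Acaca whose malonyl-CoA restrains fatty acid uptake into mitochondria, went from 2.14 ± 0.883 to 5.38 ± 1.17 CPM (SD, n = 4 each; log2 fold change 1.33, SE 0.33, edgeR adjusted p = 0.0377). Hacd3, a dehydratase of very long chain elongation, went from 55.0 ± 2.53 to 42.7 ± 3.90 CPM (-0.37, SE 0.10, edgeR adjusted p = 0.0444). Neither was called with the offset (0.107 and 0.11), and Hacd3 was not called with library size alone or with no filter. Of 11 tested genes of fatty acid oxidation 1 rose: Cpt1a, which carries fatty acids into mitochondria, was at 87.9, 89.2, 106 and 92.8 CPM at 1 week and at 140, 152, 152 and 105 CPM at 8 weeks. The groups met at 1 week 3 and 8 weeks 4. Its log2 fold change was 0.55 (SE 0.12, edgeR adjusted p = 0.0274), and 0.48 (edgeR adjusted p = 0.0454) with the offset. All 5 calls were lost without 1 week 1, without 8 weeks 1 and without 8 weeks 3, in fits that called 0.868%, 0.919% and 0.615% of all genes.

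**Figure D5:**
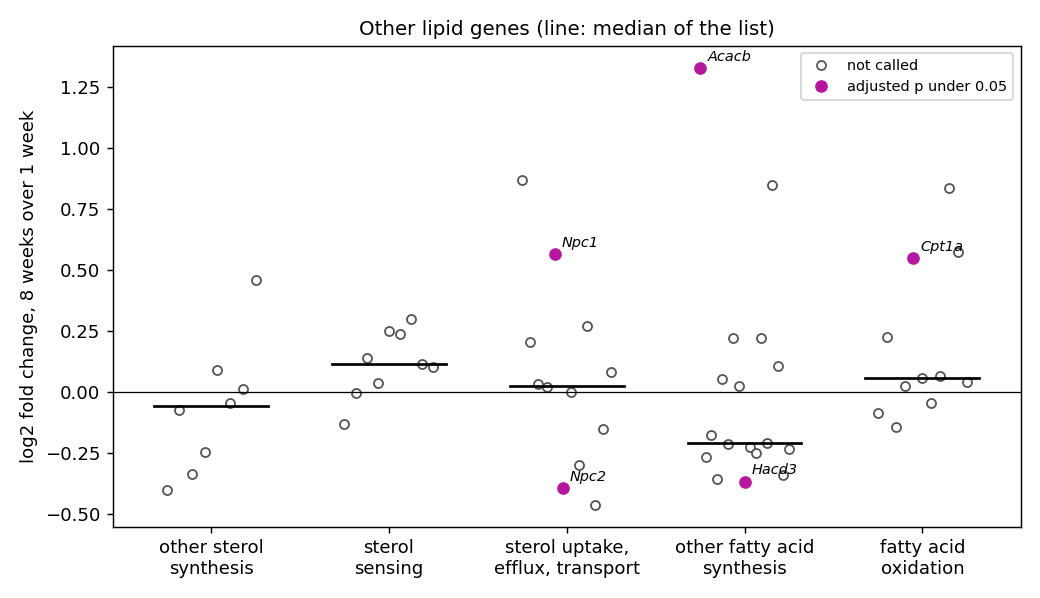
Log2 fold change (8 weeks over 1 week, y axis) of the 57 tested genes in 5 further lists (x axis); filled points have an edgeR adjusted p under 0.05 and lines are the medians of the lists. Acacb, Npc1 and Cpt1a lie above 0, and Npc2 and Hacd3 below.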

How the data were processed

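The authors deposited raw counts per gene for the 8 libraries, with their DESeq2 results in the same table: normalized signal (counts over 1 size factor per library), log2 fold change with SE, the Wald score, p-value and adjusted p-value, per the file headers. Libraries were stranded total RNA for low input after depletion of ribosomal RNA, per the labels' protocols. The submitters' processing notes name the build GRCm38 and the tools HTSeq 0.6.0, TopHat2 2.1.1, cutadapt 2.10 and DESeq2 1.26.0; the annotation release and the strand setting were not given in the sources used here, so overlapping or antisense reads can be part of a count. Columns were matched through the library names in the labels.

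Here edgeR 4.0.16 in R 4.3.3 was run on the counts: filterByExpr (minimum count 10, minimum total 15), TMM scaling and the two-sided quasi-likelihood F test over all genes, with Benjamini-Hochberg adjustment and a threshold of 0.05. The SE came from the F statistic. CPM used TMM-scaled libraries, and errors are SD over 4 libraries. Lengths and GC content were those of the longest GENCODE M21 transcript (99.8% of the genes matched, and all 29 members with the same start and end). The offset was a spline of each library on both, with 4 degrees of freedom each. The fit was also run on counts simulated from the fitted spread of each gene, without length bias or library effects. That run cannot speak to the dependence of the calls on single libraries. Members and gene lists were chosen with earlier results of these data known. The naming rule took all members, called genes of the other lists and the smallest p of each list. Replicates are separate animals per the series' design, and intervals of error cover these 8 animals only. No pair of libraries of the same age agreed within sampling noise (chi-square per degree of freedom at least 11.9). That check cannot tell separate animals from separate preparations of the same animal. Alternatives were other scalings, filters and tests (DESeq2 1.42.0, limma 3.58.1), leaving out libraries, a replicate block and the offset.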

Additional observations from a re-analysis of the deposited data

Results flagged for a closer look

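Within groups of 4, a library was set apart when its gap to the nearest other exceeded Dixon's 95% critical value as a share of the range. Of 68 groups of values checked, 3 had such a library, where chance gives about 1 in 20. Lss was at 27.6 CPM in 1 week 3, against 40.1 to 41.5 CPM in the other libraries of 1 week. Fasn was at 192 CPM in 8 weeks 1, against 156 to 158 CPM in the others of 8 weeks, and that library had the steepest slope of expression on transcript length (0.20 log2 per doubling). Srebf1 was at 46.1 CPM in 8 weeks 3, against 62.4 to 63.5 CPM in the others of 8 weeks.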

How the results depend on the processing

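Over all genes 952 were called, and the count was 592 with no filter, 2069 by the DESeq2 Wald test, 1640 by limma-voom, 60 without the pair of 1 week libraries richest in small structural RNA, 409 with the length and GC offset, and 91 to 1891 when 1 library was left out. Sterol members called numbered 1, and 5 by DESeq2, 5 by limma-voom, 0 without that pair and 0 to 4 with 1 library left out. Fatty acid members called numbered 0, and 2 by DESeq2, 2 by limma-voom and 0 to 2 with 1 library left out. The other lipid genes called numbered 5, and 3 with no filter, 0 without that pair, 2 with the offset and 0 to 6 with 1 library left out. The regulators had 0 calls under every alternative run. The cause of these moves was not tested.

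Samples of the 2 ages share replicate numbers that did not pair them: same-numbered libraries deviated with correlations of -0.31, -0.11, -0.08 and -0.13, and 0 of 8 correlated best with its own number. A replicate block of the titles called 161 genes, a block of the library names 92, and the title block with the offset 133. Under these 3 blocks 0 sterol members and 0 other lipid genes were called, and the fatty acid members called numbered 0, 0 and 1 (Scd2).

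Several log2 fold changes turned sign. Most of these were near 0 as fitted, while Fasn (0.21, SE 0.12) and Me1 (-0.25, SE 0.17) were further from it. With the offset Lss was -0.17, Fasn -0.14, Srebf1 -0.052, Srebf2 -0.15 and Insig1 0.014, and with the title block and offset they were -0.16, -0.13, -0.057, -0.15 and 0.0898. With library size alone, which moved the median of all genes by 0.10, Elovl6 was 0.051, Fads1 0.062, Fads2 0.064 and Insig1 0.016. Without the pair Dhcr7 was -0.049, Me1 0.061 and Insig1 0.00998. With the library-name block Hmgcs1 was -0.0085, Lss -0.031, Fads1 0.0012 and Srebf2 -0.012. By limma-voom Srebf1 was -0.027 and Srebf2 -0.022. With 1 library left out Hmgcs1 ran from -0.038 to 0.12, Lss from -0.094 to 0.094, Dhcr7 from -0.00902 to 0.10, Elovl6 from -0.16 to 0.014, Fads1 from -0.072 to 0.0011, Fads2 from -0.10 to 0.10, Srebf2 from -0.043 to 0.0697 and Insig1 from -0.31 to 0.085. With 4 animals per age, and 384 counts for Fdps and 515 for Mvd, small differences were not detectable.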

Other observations

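Of the 29 members, 21 (72.4%) varied more among the 1 week libraries than among the 8 weeks libraries, as the SD over the mean of CPM. Among the 11233 tested genes with a mean level at or above that of the lowest member, 54.2% did so. The median of this ratio over the members was 14.8% at 1 week and 12.8% at 8 weeks, and over those genes 12.9% and 12.4%. The members share libraries, and 1 week 3 was the lowest of its age in 20 of them, so they are not independent.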
